A study of Rattus norvegicus with 6 samples.

Results

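The 10 genes described here encode acetylcholine receptors: the nicotinic subunits Chrna3, Chrna4, Chrna5, Chrna7 and Chrnb2 and the muscarinic receptors Chrm1 to Chrm5. They were taken by symbol from a table of 22601 genes, and all 10 were present. Their RNA was measured in the ventral hippocampus of male rats of the outbred Sprague Dawley stock, 3 of them aged 4 months (adult) and 3 aged 22 months (aged). The labels name no transgene or drug for either age, and every rat had gone through the Morris water maze, which tests spatial memory, before dissection. Each library came from 1 of 3 rats drawn at random from the 10 of its age, so each is a separate animal.

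Acetylcholine reaches the hippocampus mainly along axons from the basal forebrain, and it is known for its part in attention and memory. Nicotinic receptors are pentameric cation channels that acetylcholine opens within milliseconds. Muscarinic receptors are single proteins that act through G proteins: those encoded by Chrm1, Chrm3 and Chrm5 couple to Gq and phospholipase C, and those encoded by Chrm2 and Chrm4 couple to Gi and lower cyclic AMP.

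Library totals lay between 12476758 and 15689921 counts. Slc17a7, the vesicular glutamate transporter of pyramidal and granule neurons, stood between 681 and 1338 CPM in the 6 libraries (counts scaled to library size by the TMM method). Of 9 GABAergic interneuron genes, Npy was listed at 0 in every library, although it is known to be abundant in the hippocampus, so a listed 0 need not mean that a transcript was absent. The 7 genes looked up for cholinergic neurons summed to between 2.13 and 6.53 CPM, with Chat, the enzyme that makes acetylcholine, between 0 and 0.375 CPM and Lhx8, Gbx1 and Isl1, factors of that lineage, listed at 0. Libraries differed in RNA of other tissues. Alb, first of the 8 liver genes looked up, stood at 16.9, 430 and 396 CPM in adult replicates 1 to 3 and at 16.0, 205 and 162 CPM in the aged ones. The 8 choroid plexus genes, of which Otx2 was listed at 0, summed to 2152 CPM in adult replicate 1 against 12.3 to 77.3 CPM elsewhere, and the 8 skeletal muscle genes looked up, all detected, summed to 485 CPM in adult replicate 3 against 35.3 to 143 CPM elsewhere. The 7 oligodendrocyte genes, all detected, summed to 11324 to 16990.0 CPM in adult and 6691 to 8887 CPM in aged rats, without overlap, and the 7 smooth muscle and pericyte genes, all detected, summed to 179 to 233 CPM and 107 to 157 CPM, also without overlap. What these differences contribute to the receptor values was not tested. In RNA from whole tissue, fewer cells of a type and less RNA per cell cannot be told apart.

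Chrm1 was the most abundant receptor transcript per unit of gene length. It averaged 42.0 ± 7.44 FPKM (SD over 6 libraries; counts scaled to gene length and library total), above 86.3% of the genes tested. Its lowest library (31.4 FPKM) lay above the highest library of the next gene, Chrm4 (11.9 FPKM). Chrm4 and Chrna7 both averaged 10.4 FPKM, and their ranges overlapped. Chrna4 (7.95 ± 4.10 FPKM) and Chrnb2 (7.54 ± 3.90 FPKM) followed and overlapped both with each other and with Chrna7, so the order among these 4 genes is not resolved. Chrm3 averaged 3.54 ± 0.873 FPKM and overlapped Chrnb2, but its lowest library (2.45 FPKM) lay above the highest of Chrna5 (2.25 FPKM). Chrna5 (1.49 ± 0.649 FPKM), Chrna3 (0.783 ± 0.263), Chrm5 (0.525 ± 0.458) and Chrm2 (0.348 ± 0.308) were the scarce members, and the ranges of neighbours in this order overlapped, although Chrna5 stood above Chrna3 within each of the 6 libraries. FPKM rests on 1 fixed length per gene, which ran from 1500 bases for Chrna3 to 9807 bases for Chrm3, so levels of different genes depend on these gene models.

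**Figure D1:**
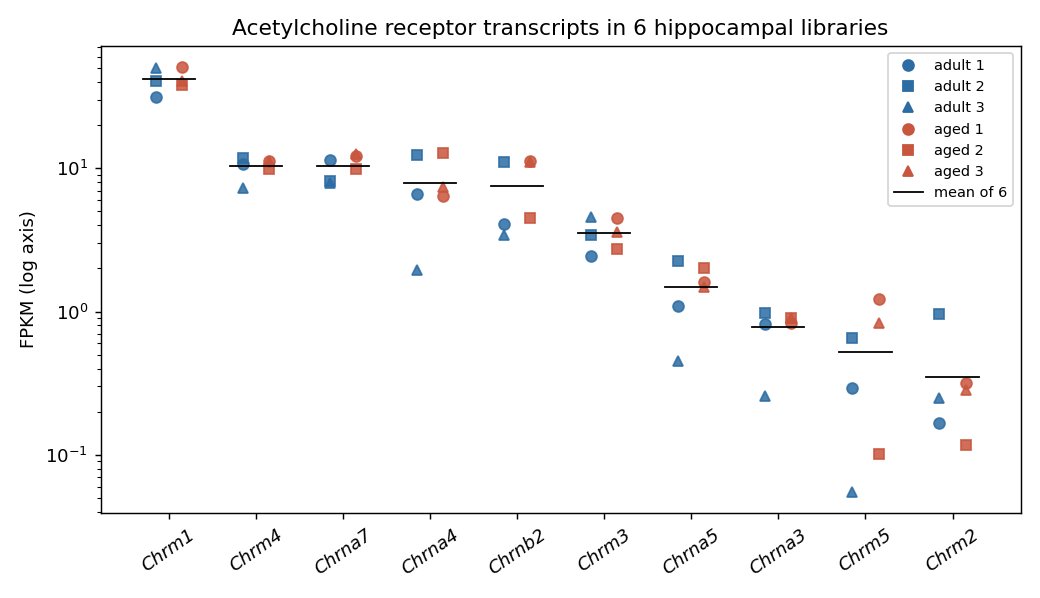
FPKM (log axis) of the 10 receptor genes in each library, ordered by the mean of 6 libraries (black line); blue marks are adult and red marks aged, and the shape gives the replicate number. Chrm1 sits apart at the top with a mean of 42.0 FPKM, and adult replicate 3 (blue triangle) is lowest for Chrna3, Chrna4, Chrna5, Chrna7, Chrnb2, Chrm4 and Chrm5.

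The stretches of 250 bases before the annotated start of 4 of these genes are printed because their transcripts contrasted in the libraries: Chrm1 and Chrm3 held a nearly fixed ratio to each other, whereas Chrna4 and Chrnb2, whose products assemble into one receptor, did not. They are RefSeq sequences of the GRCr8 assembly, matched by symbol, and 9 of the 10 members were matched. Each reads 5′ to 3′ on the gene's own strand, and capitals mark GC boxes (GGGCGG on either strand), the element bound by Sp1-type factors. Chrm1 lies at chr1:214996109-214996358 (plus strand), Chrm3 at chr17:64696677-64696926 (plus), Chrna4 at chr3:188534527-188534776 (minus) and Chrnb2 at chr2:177487307-177487556 (minus).
Chrm1: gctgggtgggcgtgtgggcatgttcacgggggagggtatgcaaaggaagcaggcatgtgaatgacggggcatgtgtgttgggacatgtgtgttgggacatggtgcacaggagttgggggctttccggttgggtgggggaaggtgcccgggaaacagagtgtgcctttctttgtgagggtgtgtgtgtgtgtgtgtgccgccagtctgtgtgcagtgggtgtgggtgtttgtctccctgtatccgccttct
Chrm3: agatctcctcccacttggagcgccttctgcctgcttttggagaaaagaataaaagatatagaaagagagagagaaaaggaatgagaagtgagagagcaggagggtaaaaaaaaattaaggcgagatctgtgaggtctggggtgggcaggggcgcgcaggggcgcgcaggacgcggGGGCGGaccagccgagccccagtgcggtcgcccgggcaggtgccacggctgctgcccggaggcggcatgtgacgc
Chrna4: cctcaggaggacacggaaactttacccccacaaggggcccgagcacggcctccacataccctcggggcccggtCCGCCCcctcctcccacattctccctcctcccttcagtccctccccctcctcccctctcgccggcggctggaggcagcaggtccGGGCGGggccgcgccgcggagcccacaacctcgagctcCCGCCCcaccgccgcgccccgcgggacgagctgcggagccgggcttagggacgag
Chrnb2: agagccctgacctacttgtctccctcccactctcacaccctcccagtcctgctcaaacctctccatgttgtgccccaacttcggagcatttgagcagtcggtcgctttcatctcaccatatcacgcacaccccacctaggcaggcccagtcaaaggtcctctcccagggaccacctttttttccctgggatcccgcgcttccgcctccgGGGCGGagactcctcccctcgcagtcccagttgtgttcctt
The Chrna4 window held 3 GC boxes at a GC content of 74.4%, Chrnb2 and Chrm3 held 1 each (59.6% and 60.0%) and Chrm1 held 0 (58.8%). Among the 9 members matched, 8 held at least 1 GC box, Chrm1 being the other, against 30.5% of all 33469 windows of the same length. The 9 windows had a GC content of 58.8% to 74.4%, where the median over all windows was 51.2%. The background was not matched for GC content, so these shares do not set the receptor genes apart from other GC-rich windows. The letters TATAAA, searched on both strands, were in 0 of the 9 windows and in 12.9% of all windows. The cyclic AMP response element TGACGTCA was in 0 of 9 and in 1.59% of all, and TTCAGCACC, the left part of the site of the neuronal silencer REST, was in 0 of 9 and in 0.305% of all. These are matches of letters in this window and nothing more.

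The comparison of aged with adult rats asked whether receptor expression differed with age, and no receptor gene passed the test. Of the 10 genes, 9 had enough counts to be tested, and edgeR's quasi-likelihood test called 0 of them at a Benjamini-Hochberg adjusted p under 0.05 (background: 0% of 14588 genes). At an unadjusted p under 0.05 there were also 0 of 9, against 3.45% of all genes tested, and DESeq2, limma-voom and limma on log2 FPKM called 0 receptor genes as well. The adjusted p was 1.00 for each of the 9. In 0 of the 10 genes were the adult and aged values separate, against 7.56% of all genes tested (3.13% with all aged values above all adult ones and 4.43% with all below). The log2 fold change (aged minus adult) was above 0 in all 9, where 49.5% of all genes tested were above 0. Its median was 0.35 over the 5 nicotinic subunits and 0.09 over the 4 muscarinic receptors tested, against -0.0022 over all genes. The GABAergic interneuron genes had a median of 0.29, with 7 of the 8 tested above 0, and summed to 893 to 1215 CPM in adult and 901 to 1414 CPM in aged rats, and their part in the receptor values was not tested. Some of the receptor genes were high and low in the same libraries, so the 9 are not 9 separate observations. Without adult replicate 3 the log2 fold change was above 0 in 6 of the 10 genes then tested, and the nicotinic median was 0.04. Without adult replicate 2 the nicotinic median was 1.03.

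**Figure D2:**
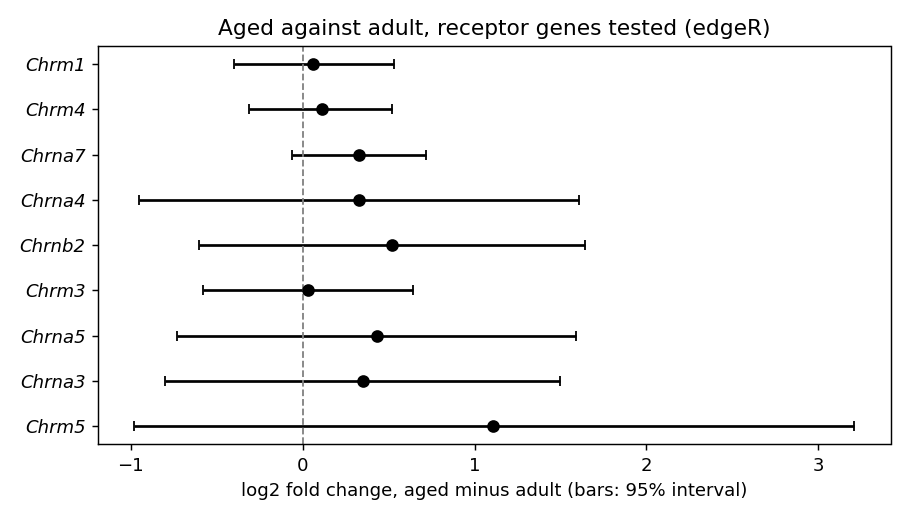
Log2 fold change of the 9 receptor genes tested, aged minus adult (point), with the 95% interval from edgeR's quasi-likelihood fit (bar, n = 3 rats per age); the dashed line is 0. Every interval spans 0, and that of Chrna7 (-0.06 to 0.72) comes closest to lying on one side of it.

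Chrna7 encodes the alpha7 subunit, which forms a channel from 5 copies of itself and is known for its high calcium permeability. It stood at 61.3, 43.4 and 43.5 CPM in adult replicates 1 to 3 and at 67.2, 53.8 and 65.8 CPM in aged replicates 1 to 3. Every adult library was exceeded by aged replicates 1 and 3, but not adult replicate 1 by aged replicate 2, so the groups overlapped. The log2 fold change was 0.33 ± 0.17 (SE), with a 95% interval of -0.06 to 0.72 and an unadjusted p of 0.0836 by edgeR (adjusted p of 1.00). This was the smallest p among the receptor genes. Without adult replicate 1 the log2 fold change was 0.53 and the unadjusted p 0.00884 by edgeR, still with an adjusted p of 1.00. Without aged replicate 2 they were 0.44 and 0.0446 (adjusted p of 0.966). The log2 fold change of Chrna7 was smaller in the other such fits. It was 0.25 without adult replicate 2, 0.26 without adult replicate 3 and 0.29 without aged replicate 1 or 3. Its variation between rats of one age was moderate, with a biological coefficient of variation of 16.3% that exceeded those of 36.1% of the genes tested. This coefficient is edgeR's estimate, which leaves out counting error and is drawn toward that of other genes, and is not the SD over the mean.

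Chrna4 and Chrnb2 encode the subunits of the alpha4beta2 receptor, the main high-affinity nicotine binding site of the brain. Chrna4 stood at 14.2, 26.3 and 4.27 CPM in adult replicates 1 to 3 and at 13.9, 27.3 and 15.3 CPM in the aged ones. Replicate 2 was the highest library at both ages, and adult replicate 3 the lowest of all. Chrnb2 stood at 8.95, 24.0 and 7.80 CPM in adult replicates 1 to 3 and at 25.3, 9.88 and 23.3 CPM in the aged ones. It thus took 2 levels, about 8 to 10 CPM in 3 libraries and about 23 to 25 CPM in the other 3, with both ages in each set. The log2 fold changes were 0.33 ± 0.56 (SE) for Chrna4 and 0.52 ± 0.49 for Chrnb2 (edgeR, adjusted p of 1.00 for both), and the 95% intervals, -0.95 to 1.61 and -0.60 to 1.64, include a change of more than 2-fold upward. Without adult replicate 2 the log2 fold change of Chrnb2 was 1.22, with an unadjusted p of 0.0172 and an adjusted p of 0.923 by edgeR. The biological coefficient of variation from edgeR was 47.9% for Chrna4 and 42.2% for Chrnb2, above 95.1% and 92.3% of the genes tested. The ratio of Chrna4 to Chrnb2 in FPKM was 1.64, 1.13 and 0.565 in adult and 0.568, 2.85 and 0.677 in aged replicates 1 to 3, a 5.05-fold range. Chrna4 overlaps Col20a1 in the GRCr8 annotation, so their reads may be mixed if strand was not used. Col20a1 stood between 9.45 and 17.7 CPM and was highest in adult replicate 3, where Chrna4 was lowest.

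Chrna5 encodes an accessory subunit that joins alpha4beta2 or alpha3-containing receptors and forms no channel by itself, and Chrna3 encodes the alpha3 subunit typical of autonomic ganglia and the medial habenula. Both genes adjoin Chrnb4 in one cluster on the chromosome. Chrna5 stood at 3.28, 6.70 and 1.40 CPM in adult replicates 1 to 3 and at 4.93, 6.10 and 4.32 CPM in the aged ones. Chrna3 stood at 1.23, 1.45 and 0.400 CPM in adult replicates 1 to 3 and at 1.26, 1.37 and 1.31 CPM in the aged ones. In both genes the aged values lay within the adult range, and adult replicate 3 was the lowest library. The 6 counts of Chrna3 in adult replicate 3 have an exact Poisson 95% interval of 2.20 to 13.1, and its highest library, adult replicate 2, had 23 counts (14.6 to 34.5). Such intervals cover counting error only. The log2 fold changes were 0.43 ± 0.50 for Chrna5 and 0.35 ± 0.50 for Chrna3 (SE, edgeR, adjusted p of 1.00). Without adult replicate 3 they were 0.04 and -0.02, and without adult replicate 2 that of Chrna5 was 1.13 (edgeR, unadjusted p of 0.0365, adjusted p of 0.923). The 8 medial habenula genes looked up summed to 50.6 to 70.0 CPM in adult and 40.9 to 46.3 CPM in aged rats, without overlap and with none at 0 throughout. Only 4 of the 8 had enough counts to be tested, and 1 of these, Lrrc55, separated the ages, against 7.56% of all genes tested. Among the 8, Gpr151, the defining marker of the habenula, stood between 0 and 0.161 CPM and made up at most 0.374% of the sum. The sum thus rested on the other 7 genes and cannot be read as an amount of habenula tissue. Chrnb4, which pairs with alpha3 there, stood between 0.0666 and 0.546 CPM. The part of these 8 genes in the receptor values was not tested.

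Chrm1 and Chrm3 encode the Gq-coupled receptors through which acetylcholine excites pyramidal neurons. Chrm1 stood at 113, 146 and 187 CPM in adult replicates 1 to 3 and at 187, 138 and 142 CPM in the aged ones. Chrm3 stood at 24.0, 33.2 and 46.2 CPM in adult replicates 1 to 3 and at 44.9, 27.1 and 33.9 CPM in the aged ones. In both genes the aged values lay within or at the edge of the adult range, adult replicate 1 was lowest, and adult replicate 3 and aged replicate 1 were highest. The log2 fold change of Chrm1 was 0.06 ± 0.20 (SE), with a 95% interval of -0.40 to 0.53, and that of Chrm3 was 0.03 ± 0.27, with an interval of -0.58 to 0.64 (edgeR, adjusted p of 1.00 for both). Both turned negative without adult replicate 1 (-0.09 and -0.16) or aged replicate 1 (-0.07 and -0.16). For both genes the interval leaves out a change of 2-fold in either direction.

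Chrm5, the third Gq-coupled receptor, is known from dopamine neurons of the midbrain and is scarce in the hippocampus. It stood at 0.683, 1.52 and 0.133 CPM in adult replicates 1 to 3 and at 2.93, 0.241 and 1.88 CPM in the aged ones. These values rest on 10, 24 and 2 counts in adult and 44, 3 and 30 counts in aged rats. The exact Poisson 95% intervals of aged replicate 1 (32.0 to 59.1 counts) and aged replicate 2 (0.619 to 8.77 counts) did not overlap. The biological coefficient of variation from edgeR, 74.4%, exceeded those of 98.9% of the genes tested. Its log2 fold change of 1.11 ± 0.91 (SE) had a 95% interval of -0.98 to 3.21 (edgeR, adjusted p of 1.00). It was 0.49 without aged replicate 1, 0.62 without adult replicate 3 and 2.04 without adult replicate 2. Chrm5 overlaps Aven in the GRCr8 annotation, and Aven did not share its profile, with 15.2, 15.7 and 19.1 CPM in adult replicates 1 to 3 and 14.1, 17.0 and 12.4 CPM in the aged ones.

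Chrm4 and Chrm2 encode the Gi-coupled receptors, which include the autoreceptors that limit acetylcholine release. Chrm4 stood at 41.0, 45.4 and 28.6 CPM in adult replicates 1 to 3 and at 43.8, 38.3 and 41.6 CPM in the aged ones. All 3 aged libraries lay within the adult range, which adult replicate 3 set at its lower end. The log2 fold change was 0.11 ± 0.18 (SE), with a 95% interval of -0.31 to 0.52 (edgeR, adjusted p of 1.00), and without adult replicate 3 it was -0.06. Chrm2 stood at 0.341, 1.96 and 0.533 CPM in adult replicates 1 to 3 and at 0.666, 0.241 and 0.563 CPM in the aged ones, or between 3 and 31 counts. Adult replicate 2 alone was above 1 CPM, and the gene was too low to be tested with the others. With no filter on low counts its log2 fold change was -0.93 ± 0.74 (SE, edgeR, adjusted p of 1.00), the only receptor gene below 0. Chrm4 overlaps Mdk in the GRCr8 annotation. Mdk reached 77.4 CPM in adult replicate 1 against 25.6 to 41.3 CPM elsewhere, a profile that Chrm4 did not share.

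Across the 6 libraries some receptor genes were high and low in the same libraries, and these sets of genes cut across age. The sets were formed after the values had been seen and are a description. Chrm1 and Chrm3 formed the first. The ratio of Chrm1 to Chrm3 in FPKM lay between 11.0 and 12.8 in adult and between 11.3 and 13.8 in aged rats. Its range was 1.26-fold, while Chrm1 itself ranged 1.65-fold and Chrm3 1.93-fold. Slc17a7 moved with them: it stood at 681, 1092 and 1143 CPM in adult replicates 1 to 3 and 1338, 762 and 981 CPM in the aged ones, and the ratio of Chrm1 to Slc17a7 ranged 1.35-fold. The 8 pyramidal neuron genes looked up, all detected, summed to between 1194 and 2075 CPM in adult and between 1343 and 2312 CPM in aged rats, and Slc17a7 made up 53.5% to 57.9% of that sum. Without it the other 7 reached 514, 947 and 932 CPM together in adult replicates 1 to 3 and 974, 582 and 724 CPM in the aged ones. Replicate 1 was lowest among adults and replicate 2 lowest among aged rats, as for Chrm1 and Chrm3. These 7 genes did not rise from adult replicate 2 to 3, where Chrm1 went from 146 to 187 CPM and Chrm3 from 33.2 to 46.2 CPM. The sum of the 7 dentate granule cell genes looked up did rise there, from 285 to 441 CPM. Like Chrm1 and Chrm3, this sum was lowest at adult replicate 1 (259 CPM) and, among aged rats, at replicate 2 (312 CPM). Aged replicate 1 reached only 338 CPM, below adult replicate 3, while Chrm1 was at 187 CPM in both. Prox1, first on that list, rose from 51.3 to 100.1 CPM but, among aged rats, was highest in replicate 3 (63.3 CPM). The part of the pyramidal neuron and granule cell genes in the receptor values was not tested.

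Chrna4, Chrna5 and Chrna3 formed the second set, lowest in adult replicate 3 and, among adults, highest in replicate 2. Among aged rats Chrna4 and Chrna5 were again highest in replicate 2. Chrna3 hardly differed there, with 1.26, 1.37 and 1.31 CPM from 19, 17 and 21 counts in aged replicates 1 to 3. Chrnb2, Chrm4 and Chrm5 were also lowest in adult replicate 3 but, among aged rats, lowest in replicate 2. The ratio of Chrna4 to Chrna5 in FPKM was 6.12, 5.54 and 4.30 in adult and 3.99, 6.32 and 4.99 in aged replicates 1 to 3. Its range was 1.58-fold, while Chrna4 ranged 6.40-fold and Chrna5 4.79-fold. The 8 striatal genes looked up, all detected, reached 122, 203 and 150.0 CPM together in adult replicates 1 to 3 and 136, 225 and 148 CPM in the aged ones, high in replicate 2 of both ages, as Chrna4 was, but not lowest in adult replicate 3. Among them Drd1, a dopamine receptor gene, stood at 4.85, 10.8 and 5.40 CPM in adult replicates 1 to 3 and at 6.86, 13.1 and 5.51 CPM in the aged ones. The 8 thalamus genes looked up, of which Gbx2 was listed at 0, had their lowest sum in adult replicate 3 (88.6 CPM). Within each age their sum was highest in replicate 2, at 113 CPM (adult) and 127 CPM (aged). Tcf7l2, first on that list, was also lowest in adult replicate 3 (5.07 CPM) but, among aged rats, highest in replicate 3 (6.82 CPM). The sums of the 7 astrocyte and the 7 microglia genes were likewise lowest in adult replicate 3 and, within each age, highest in replicate 2. Skeletal muscle genes were highest in adult replicate 3, as given above. The part of these lists in the receptor values was not tested.

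Chrnb2 and Chrm5 formed the third set, with adult replicate 2 and aged replicates 1 and 3 high and the other 3 libraries low in both genes. They shared which libraries were high but not by how much: the ratio of Chrm5 to Chrnb2 in FPKM lay between 0.0160 and 0.108. This 6.77-fold range was wider than the 3.24-fold range of Chrnb2 itself and narrower than the 22.0-fold range of Chrm5. By the root-mean-square difference of centred log2 CPM over the 6 libraries, the genes of 13133 compared that were most like Chrnb2 were Cds2 (0.0935), Uhmk1 (0.120) and Syt13 (0.159), where the median gene was at 0.760. Cds2, an enzyme of phosphatidylinositol synthesis, stood at 3.62, 9.61 and 2.67 CPM in adult replicates 1 to 3 and at 8.99, 4.02 and 9.01 CPM in the aged ones, the same split of libraries at a lower level. Among the genes most like Chrm1 were Brinp1 (0.0575) and Zdhhc24 (0.0581), with a median gene at 0.331. The genes most like Chrna7 were Accs (0.0634), Sp9 (0.0649), a transcription factor of interneurons, and Nrp2 (0.0726), a semaphorin receptor, with a median gene at 0.335. These likenesses rest on 6 libraries and are given as a description only.

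**Figure D3:**
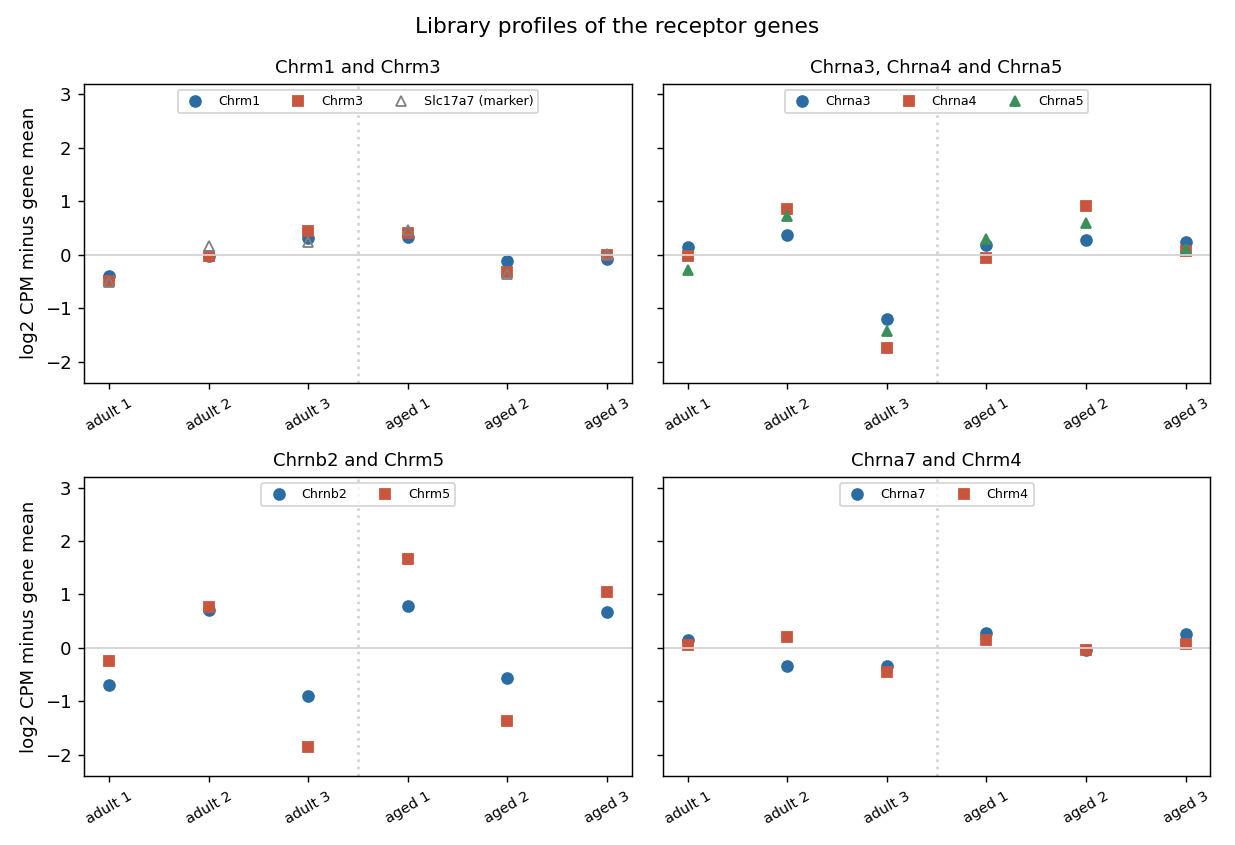
Log2 CPM of each receptor gene minus its mean over the 6 libraries, by library, with Slc17a7 as open grey marks; the dotted line separates adult from aged libraries. Chrm1, Chrm3 and Slc17a7 lie near each other. Adult replicate 3 is the low point of every gene in the panels of Chrna3, Chrna4 and Chrna5 and of Chrnb2 and Chrm5. Aged replicate 2 is high for Chrna4 and Chrna5 and low for Chrnb2 and Chrm5, while Chrna3 is nearly level across the aged libraries.

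The makeup of each family was compared as shares of its summed FPKM, which do not depend on the scaling between libraries. Chrm1 took 69.8%, 70.7% and 80.5% of the muscarinic sum in adult and 74.7%, 74.6% and 71.9% in aged replicates 1 to 3. The 3 Gq-coupled receptors together took 80.5 ± 6.51% in adult and 81.0 ± 1.84% in aged rats (SD, n = 3). Chrm4 took 18.7 ± 6.29% and 18.6 ± 1.88%. The mean muscarinic makeup differed between ages by less than the spread between rats. The shares of the abundant nicotinic subunits varied more from rat to rat than that of Chrm1, while the small shares of Chrm5 and Chrm2 varied 20.3-fold and 7.24-fold. Chrna7 took 47.3%, 23.4% and 56.2% in adult and 37.8%, 33.0% and 37.8% in aged replicates 1 to 3, and Chrna4 took 27.8%, 35.8% and 14.0% and then 19.8%, 42.4% and 22.2%. The largest nicotinic share belonged to Chrna7 in 4 libraries and to Chrna4 in replicate 2 of both ages. The summed nicotinic FPKM was 24.3 ± 10.4 in adult and 32.0 ± 1.68 in aged rats and the muscarinic sum 55.1 ± 9.00 and 58.6 ± 8.72, with overlapping groups in both. The muscarinic sum exceeded the nicotinic one 1.66-fold to 2.10-fold in 5 libraries and 4.46-fold in adult replicate 3.

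**Figure D4:**
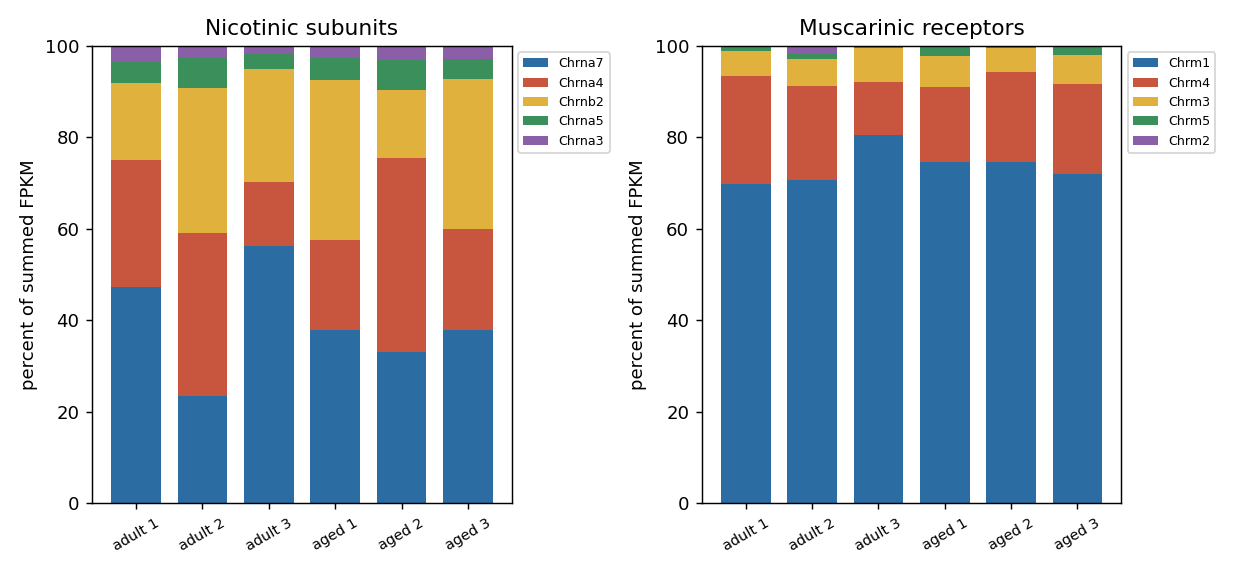
Share of each gene in the summed FPKM of the 5 nicotinic subunits (left) and of the 5 muscarinic receptors (right), in percent, for each library. In the muscarinic bars Chrm1 holds between 69.8% and 80.5%, whereas the share of Chrna7 among nicotinic subunits runs from 23.4% to 56.2%.

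Beyond the receptor genes, 6 lists of related genes were read from the same fit, and no gene on them was called by edgeR, DESeq2, limma-voom or limma on log2 FPKM. The other nicotinic subunits were scarce. Of 11 looked up, 3 had enough counts to be tested, 0 were called by edgeR and 1, Chrne, had an unadjusted p under 0.05, against 3.45% of all genes tested. Chrne was also the 1 of the 3 whose adult and aged values were separate, against 7.56% of all genes tested. Chrne encodes the epsilon subunit of the adult neuromuscular receptor, and its level was 2.05, 1.14 and 1.33 CPM in adult replicates 1 to 3 and 2.26, 4.66 and 2.32 CPM in the aged ones. The 3 aged libraries lay above every adult one, though aged replicate 1 did so narrowly, with a log2 fold change of 1.02 ± 0.43 (SE, edgeR, adjusted p of 1.00, unadjusted p of 0.0431). Chrne overlaps Gp1ba and C10h17orf107 in the GRCr8 annotation, so its reads are uncertain where strand was not used. Chrna2, known from interneurons of stratum oriens, had a mean of 0.655 ± 0.172 CPM at 4 months and 0.865 ± 0.327 CPM at 22 months, and the muscle subunit gene Chrnb1 had means of 0.865 ± 0.442 and 0.542 ± 0.157 CPM. Chrna9 was at 0 counts in all 6 libraries.

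Among 7 genes of acetylcholine supply and breakdown, 5 were tested, 0 were called by edgeR and 0 had an unadjusted p under 0.05, with a median log2 fold change of -0.24. That median was -0.08 without adult replicate 2 and -0.14 without adult replicate 1. Ache, the esterase that ends the signal, was the most abundant per length (23.2 FPKM) and had a mean of 48.3 ± 3.30 CPM at 4 months and 47.5 ± 9.70 CPM at 22 months. Prima1, which anchors the esterase in neuronal membranes, had means of 18.4 ± 3.53 and 15.6 ± 6.30 CPM. Bche, the second cholinesterase, had means of 1.52 ± 0.788 and 1.02 ± 0.710 CPM, and Colq, the collagen-like tail of the esterase at muscle endplates, 2.85 ± 0.377 and 2.37 ± 0.321 CPM. The choline transporter gene Slc5a7 had means of 1.81 ± 0.917 and 1.92 ± 0.991 CPM, and Slc18a3, the vesicular acetylcholine transporter, lay between 0.133 and 1.20 CPM. Chat and Slc18a3 lie in one locus and overlap in the GRCr8 annotation.

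Among 10 genes for chaperones and lynx-type modulators of nicotinic receptors, 8 were tested, 0 were called by edgeR and 0 had an unadjusted p under 0.05 (median log2 fold change 0.18, and 0.07 to 0.33 on leaving out 1 library, lowest without adult replicate 3 and highest without adult replicate 1). Lynx1 (75.2 FPKM), Tmem35 (91.8 FPKM) and Ly6h (325 FPKM) stood above every receptor gene per length. Lynx1, a membrane-bound brake on nicotinic receptors, had a mean of 318 ± 15.4 CPM at 4 months and 305 ± 32.7 CPM at 22 months, and its relative Ly6h had means of 378 ± 74.8 and 412 ± 115 CPM. Ric3, a chaperone that assists assembly of alpha7 receptors, was at 63.8 ± 3.68 and 67.7 ± 4.42 CPM. Tmem35, the older symbol of the alpha7 chaperone gene Tmem35a, had means of 164 ± 70.4 and 193 ± 45.5 CPM. Lypd6 and Lypd6b, with the smallest p of this list, had means of 22.1 ± 5.63 and 27.0 ± 3.59 CPM and 6.40 ± 1.57 and 8.25 ± 1.90 CPM.

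Downstream of the muscarinic receptors no gene was called either. Of 12 Gq effectors all were tested, and edgeR called 0, with 0 at an unadjusted p under 0.05 and a median log2 fold change of 0.02 (-0.07 without aged replicate 1 and 0.24 without aged replicate 2). Prkcb, a protein kinase C gene, had a mean of 233 ± 28.2 CPM at 4 months and 202 ± 29.3 CPM at 22 months. Of 13 Gi effectors 0 were called and 0 had an unadjusted p under 0.05 (median -0.03, and -0.16 without aged replicate 1 and 0.15 without adult replicate 2). Adcy1, a calcium-stimulated adenylyl cyclase, had a mean of 607 ± 308 CPM at 4 months and 433 ± 54.7 CPM at 22 months, the G protein genes Gnb1 and Gnai2 435 ± 77.1 and 312 ± 50.1 CPM at 4 months and 456 ± 47.2 and 305 ± 29.3 CPM at 22 months, and Gnai1 103 ± 21.4 and 123 ± 28.5 CPM. Of 7 receptor kinases and arrestins 0 were called and 0 had an unadjusted p under 0.05 (median 0.05, and 0.29 without adult replicate 2). In 1 of the 7, Arrb1, the adult and aged values were separate, against 7.56% of all genes tested. Arrb1, an arrestin that binds phosphorylated receptors, stood at 232, 281 and 215 CPM in adult replicates 1 to 3 and at 283, 284 and 285 CPM in the aged ones, so the aged libraries lay just above the highest adult one (log2 fold change 0.23 ± 0.13, SE, edgeR adjusted p of 1.00). The kinase genes Grk2 and Grk3 averaged 152 ± 48.2 and 88.0 ± 13.5 CPM at 4 months and 157 ± 7.79 and 101 ± 8.49 CPM at 22 months, and Csnk1a1 65.7 ± 11.0 and 76.4 ± 17.2 CPM.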

How the data were processed

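The authors deposited raw counts per gene symbol for 6 libraries and, in a second table, FPKM values, and each FPKM equals the deposited count over 1 length per gene and the library total. The build was Rnor_6.0, per the submitters' processing notes. Which aligner and counting program were used, and whether strand was, is not given in the sources used here. Symbols were matched to RefSeq's GRCr8 table, used only for names, overlaps and upstream sequences (94.3% of the genes tested matched).

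After filterByExpr, 14588 genes remained. They were TMM-scaled and fitted in edgeR 4.0.16 (R 4.3.3, quasi-likelihood F test, two-sided, age as the only term, Benjamini-Hochberg adjustment over all genes, threshold 0.05). Standard errors and 95% intervals come from the F statistic. The p-values rest on 6 animals. Alternatives used limma 3.58.1, DESeq2 1.42.0, other scalings and filters, log2(FPKM + 1) and log2(FPKM + 0.1), a replicate block and leaving out each library. Figures were drawn with matplotlib 3.10.9.

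The members and lists (6 of pathway genes, 16 of cell type markers) were chosen with earlier results of these data known. The rule for names took every member, the 2 most abundant genes per length and the 2 of smallest p in each pathway list, and Chat, Slc18a3, Slc5a7, Ache, Bche, Ric3, Lynx1, Chrna2 and Chrnb4. It took the first gene and the sum of each marker list, of which only those that bear on a receptor are given. It also took, for Chrnb2, Chrm1 and the member of smallest p, the 3 genes of most like profile among genes of at least 1 CPM, leaving out locus identifiers. Genes that overlap a member are given too. Some genes that this rule takes are not reported here.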

Additional observations from a re-analysis of the deposited data

How the results depend on the processing

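No receptor gene was called under any of the 18 alternatives. Over all genes, where edgeR called 0, DESeq2 called 31 genes and limma on log2(FPKM + 1) called 2, and leaving out 1 library called between 0 and 1. The median log2 fold change of the nicotinic subunits ran from 0.33 to 0.61 with other scalings, filters, tools and the block and from 0.04 to 1.03 on leaving out 1 library, and that of the muscarinic receptors from 0.06 to 0.12 and from -0.09 to 0.27. Of 162 log2 fold changes of single receptor genes, 154 kept their direction and 8 reversed, all 8 on leaving out 1 library. Without adult replicate 3 these were Chrna3 (-0.02), Chrna4 (-0.10) and Chrm4 (-0.06). Without aged replicate 2 it was Chrna4 (-0.03). Chrm1 and Chrm3 reversed without adult replicate 1 (-0.09 and -0.16) and without aged replicate 1 (-0.07 and -0.16). Leaving out 1 library gave Chrna3 from -0.02 to 0.69, Chrna4 from -0.10 to 1.03, Chrm4 from -0.06 to 0.25, Chrm1 from -0.09 to 0.27 and Chrm3 from -0.16 to 0.31. The cause was not tested. Chrna5, Chrna7, Chrnb2 and Chrm5 kept their direction throughout. On leaving out 1 library Chrna5 lay between 0.04 and 1.13 and Chrna7 between 0.25 and 0.53. Chrnb2 lay between 0.25 and 1.22 and Chrm5 between 0.49 and 2.04. Receptor genes at an unadjusted p under 0.05 by edgeR numbered 1 without adult replicate 1, 2 without adult replicate 2 and 1 without aged replicate 2. They numbered 0 without any of the other libraries, and 9 or 10 were tested in each of these fits. With the replicate number as a block, 0 genes and 0 receptor genes were called and the nicotinic median was 0.58. The labels do not pair rats of the 2 ages by replicate number. Deviations of same-numbered libraries from the mean of their age correlated at -0.015, -0.057 and 0.087 over 14588 genes. Adult replicate 3 correlated best with aged replicate 3, but adult replicates 1 and 2 correlated best with another number (0.118 and 0.06). Deviations within 3 libraries are tied to each other, so these correlations cannot decide whether the numbers pair rats. With no filter, limma on log2(FPKM + 1) gave a median of -0.03 for acetylcholine supply and breakdown and 0.02 for the other nicotinic subunits. Among genes of at least 1 CPM in 3 libraries, Chrne alone of these subunits remained, so the 1.02 found there was its own value. Chrm2, Chrm5 and Chrna3 rest on 44 counts or fewer per library.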
